A study of Mus musculus with 4 samples.

Results

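The immunoglobulin heavy chain locus (Igh), the immunoglobulin kappa light chain locus (Igk), the joint T cell receptor alpha and delta locus (Tra/Trd) and the T cell receptor beta locus (Trb) were examined for open chromatin in mouse acute myeloid leukemia (AML) cells. Every called peak whose centre lay in one of 4 windows of the mm10 assembly was a member. The windows were chr12:113200001-116100000 for Igh, chr6:67500001-70800000 for Igk, chr14:52400001-54300000 for Tra/Trd and chr6:40800001-41600000 for Trb. They held 698 of the 236215 peaks of replicate 1 and 155 of the 67438 peaks of replicate 2, and 166 of the replicate 1 peaks overlapped a peak of replicate 2 by at least 1 bp and are called shared. DNase-seq cuts open chromatin in nuclei with DNase I and sequences the cut ends, and the authors' peaks are windows of 150 bp with a whole-number score. The cells were of strain C57BL/6J and, per the labels, had been differentiated in vitro, with no treatment, control, age or sex given. The 4 libraries came as 2 technical repeats for each of 2 biological replicates, both from 1 donor entry, and only 1 pooled peak list per biological replicate was available here. No difference between conditions was therefore tested, and all values below are descriptions. Neither the score scale nor the read depth is stated, so a score ranks a peak within its own list only.

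An antigen receptor gene is assembled in developing lymphocytes by V(D)J recombination, in which the RAG recombinase joins a variable (V) segment to a joining (J) segment, with a diversity (D) segment between them in heavy, beta and delta chains. RAG cuts at recombination signal sequences (RSSs), made of a heptamer and a nonamer, which lie directly 3′ of each V segment. Opening of the loci is known to depend on V promoters, on enhancers near the constant (C) segments and on CTCF, a protein that anchors chromatin loops.

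The windows below carry the results that follow, each printed 5′ to 3′ from the RefSeq copy of the mm10 (GRCm38) reference. The first sequences are shared peaks just 3′ of Igh V segments, on the strand of the segment (the minus strand of chromosome 12), with matches to CTCF, the RSS heptamer CACAGTG, the RSS nonamer ACAAAAACC and RUNX (TGTGGTT, which reads AACCACA on the opposite strand) in capitals. Ighv2-3, Ighv5-2 and Ighv2-9 show the CTCF match behind the RSS, and Ighv1-58, Ighv1-42 and Ighv1-64 show the RUNX match inside it.
Ighv2-3: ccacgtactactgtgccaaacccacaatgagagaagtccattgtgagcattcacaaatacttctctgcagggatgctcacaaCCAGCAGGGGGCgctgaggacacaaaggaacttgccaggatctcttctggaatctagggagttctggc
Ighv5-2: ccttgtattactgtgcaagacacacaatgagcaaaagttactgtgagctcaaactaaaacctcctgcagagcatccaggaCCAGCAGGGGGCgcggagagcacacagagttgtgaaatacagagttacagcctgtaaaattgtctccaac
Ighv2-9: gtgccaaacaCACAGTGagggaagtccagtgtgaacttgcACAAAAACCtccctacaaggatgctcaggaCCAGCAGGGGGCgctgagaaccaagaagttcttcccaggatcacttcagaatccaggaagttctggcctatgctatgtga
Ighv1-58: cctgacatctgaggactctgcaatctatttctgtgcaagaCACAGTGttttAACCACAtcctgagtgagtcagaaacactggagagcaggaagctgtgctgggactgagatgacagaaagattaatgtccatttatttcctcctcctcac
Ighv1-42: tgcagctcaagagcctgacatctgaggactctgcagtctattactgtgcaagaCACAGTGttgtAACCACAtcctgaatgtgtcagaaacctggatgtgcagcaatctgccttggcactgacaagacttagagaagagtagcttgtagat
Ighv1-64: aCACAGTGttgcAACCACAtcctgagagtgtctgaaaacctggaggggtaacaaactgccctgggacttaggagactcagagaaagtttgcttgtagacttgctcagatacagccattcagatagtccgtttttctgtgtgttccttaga

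Their positions were chr12:113611056-113611205 (Ighv2-3), chr12:113578376-113578525 (Ighv5-2), chr12:113878956-113879105 (Ighv2-9), chr12:115312056-115312205 (Ighv1-58), chr12:114937016-114937165 (Ighv1-42) and chr12:115507396-115507545 (Ighv1-64). The next windows are the shared peaks of highest mean rank in the intervals of 4 known control elements, together with a peak 5′ of an alpha V segment and the peak at Trbv1, all on the plus strand. Capitals mark E-box (CAGNTG) and RUNX matches in the first 4, an E-box and an AP-1 match (TGANTCA) at Trav4-4-dv10, and a match to the PU.1-type ETS motif (GAGGAAGT) at Trbv1.
Igh 3′ regulatory region: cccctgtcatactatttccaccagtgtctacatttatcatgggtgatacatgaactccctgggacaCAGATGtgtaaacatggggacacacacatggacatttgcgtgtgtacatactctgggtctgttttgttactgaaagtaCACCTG
E-mu: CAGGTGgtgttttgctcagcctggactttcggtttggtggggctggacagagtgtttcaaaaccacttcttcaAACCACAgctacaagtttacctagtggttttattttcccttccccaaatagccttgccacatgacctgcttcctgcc
Cer and Sis: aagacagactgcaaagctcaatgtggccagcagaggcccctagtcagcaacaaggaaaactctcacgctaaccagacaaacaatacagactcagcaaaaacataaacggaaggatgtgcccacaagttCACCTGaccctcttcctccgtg
E-alpha: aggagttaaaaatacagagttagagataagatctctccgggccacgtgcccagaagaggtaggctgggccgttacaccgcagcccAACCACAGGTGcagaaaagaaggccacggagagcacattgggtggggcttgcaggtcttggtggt
Trav4-4-dv10: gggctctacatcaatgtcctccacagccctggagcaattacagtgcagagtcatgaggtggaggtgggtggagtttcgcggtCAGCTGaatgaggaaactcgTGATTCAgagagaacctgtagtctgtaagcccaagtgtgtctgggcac
Trbv1: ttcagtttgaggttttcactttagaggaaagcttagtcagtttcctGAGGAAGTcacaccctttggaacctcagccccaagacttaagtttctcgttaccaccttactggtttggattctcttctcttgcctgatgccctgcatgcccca

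These lay at chr12:113222276-113222425 (Igh 3′ regulatory region), chr12:113427436-113427585 (E-mu, the Igh intronic enhancer), chr6:70714376-70714525 (Cer and Sis, elements between the kappa V and J segments), chr14:54227556-54227705 (E-alpha, the enhancer 3′ of the alpha constant gene), chr14:53683476-53683625 (Trav4-4-dv10) and chr6:40891116-40891265 (Trbv1). In the E-alpha window the RUNX and E-box matches overlap. A match is an agreement of letters, not a measured binding site.

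The label of the cells was checked at 10 myeloid genes first. A peak within 1 kb of a start was shared at 9 of 10 myeloid markers, with scores of 150 and 94 in replicates 1 and 2 at Spi1, which encodes PU.1, and of 148 and 97 at Cebpa, which encodes a granulocyte and monocyte factor. Elane, a neutrophil protease, had a score of 131 in replicate 1 and no peak in replicate 2. The same rule gave 3 of 8 B cell markers, 3 of 8 T cell markers and 1 of 5 natural killer cell markers, and a replicate 1 peak at 6, 4 and 3 of them, against 57.7% of all 21938 protein-coding genes shared and 70.5% in replicate 1. The shared ones were Pax5 (129 and 59), Ebf1 (134 and 52) and Cd22 (118 and 58) among B cell genes, Cd3d (150 and 72), Lck (142 and 83) and Bcl11b (116 and 32) among T cell genes, and Klrd1 (104 and 16) among natural killer cell genes. The B cell genes without any peak were Cd79a and Blk, the T cell genes without any were Cd3g, Cd4, Cd8a and Cd8b1, and the part of any lymphoid cells in the results was not tested. The replicate 1 list was 3.50 times as long as that of replicate 2, and scores reached 150 in replicate 1 and 138 in replicate 2.

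The 4 loci differed widely in how many peaks they held. Igh held 413 peaks in replicate 1, 85 in replicate 2 and 94 shared peaks. That was 142 peaks per Mb in replicate 1 and 32.4 shared per Mb, against 89.3 and 23.3 in the rest of the genome. Igk, the longest window, held 41 peaks in replicate 1, 19 in replicate 2 and 17 shared peaks, or 12.4 and 5.15 per Mb. Tra/Trd held 160, 40 and 44, or 84.2 and 23.2 per Mb, and Trb held 84, 11 and 11, or 105 and 13.8 per Mb. Igh was thus above the genome average in both lists and among shared peaks (ratios of 1.60, 1.15 and 1.39), Igk was below it in all of them (0.139, 0.226 and 0.221), and Trb was above it in replicate 1 (1.18) and below it in replicate 2 (0.539).

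The Igh density above the genome average rested on lower-scoring peaks. The median replicate 1 score was 62 in Igh, 73 in Igk, 54 in Tra/Trd and 60 in Trb, against 74 in the rest of the genome. When only peaks at or above the median score of their own list were kept, the Igh ratio of shared density was 0.499, and with the replicate 1 list cut to the length of the replicate 2 list it was 0.907. The same settings gave 0.466 and 0.501 for Tra/Trd, against 0.992 with all peaks, and 0.302 and 0.350 for Trb, against 0.589. Igk stayed low under both, at 0.171 and 0.187, so all 4 loci were then below the rest of the genome. For the Tra/Trd V part the ratios were 0.147 and 0.273, against 0.887 with all peaks. Peaks near coding starts made up 6.63% of the shared peaks of the loci, against 31.9% in the rest of the genome, and without them the ratio for the 4 loci was 1.10, against 0.799 with them.

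**Figure D1:**
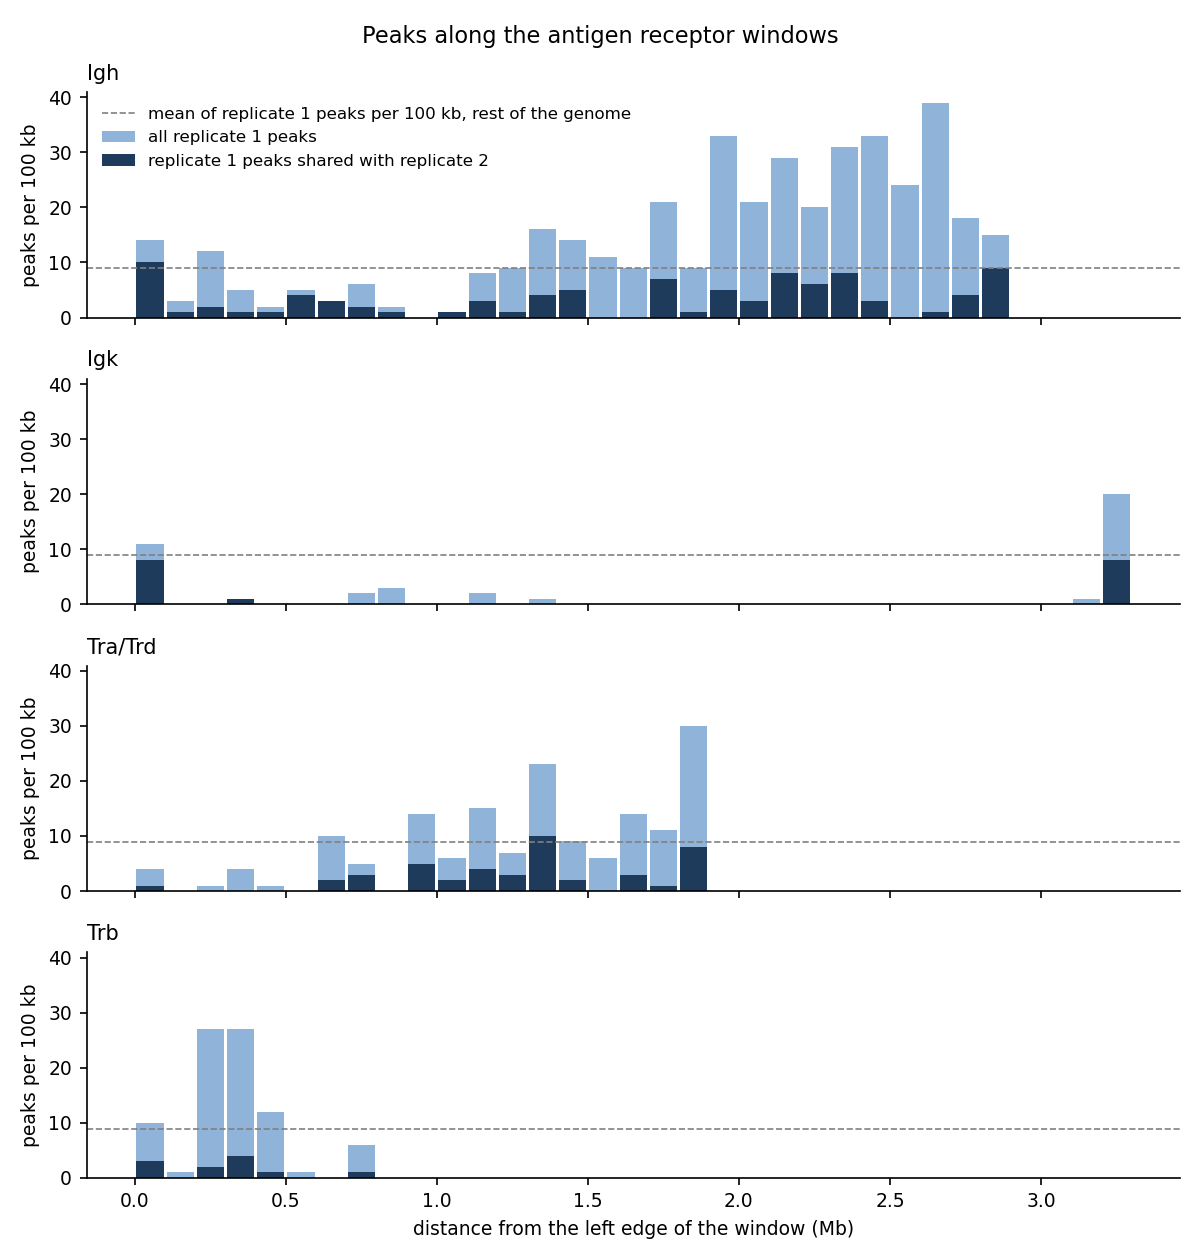
Number of peaks in bins of 100 kb along each window (vertical axis, peaks per 100 kb; horizontal axis, distance from the left edge of the window in Mb). Light bars are all replicate 1 peaks, dark bars those shared with replicate 2, and the dashed line is the replicate 1 mean in the rest of the genome; Igh reached 39 peaks in a bin, while 25 of the 33 Igk bins held none.

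The plot of peaks along the windows shows where they lay. Of 33 bins of 100 kb in Igk, 25 had no replicate 1 peak and 30 had no shared peak, and the first and the last bin held 11 and 20 of its 41 replicate 1 peaks. In Igh only 1 of 29 bins had no replicate 1 peak and 4 had no shared peak. Of the 41 Igk peaks, 13 lay in other coding genes or near their starts and 13 beyond the outermost segments. Rpia, which encodes a pentose phosphate enzyme, had a promoter peak with scores of 149 and 92 in replicates 1 and 2.

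Placed by their nearest segment, most of the difference between the loci was in the V parts. The Igh V part held 375 replicate 1 peaks and 74 shared ones over 2459.6 kb, or 152 and 30.1 per Mb. The Igk V part, which is longer at 3157.87 kb, held 13 and 2, or 4.12 and 0.633 per Mb. The Tra/Trd V part held 115 and 34 (70.1 and 20.7 per Mb), and the Trb V part 66 and 8 (147 and 17.9 per Mb). The D/J parts held 26 replicate 1 peaks in all and 5 shared, and the C parts 14 and 3.

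The V parts hold much repeated sequence, in Igh about as much as in Igk, and the notes with the libraries list a signal track of unique reads but do not say how peak calling treated reads with several places. The share of 31-base words that occur once in the reference was 59.0% in the Igh V part, 56.5% in the Igk V part, 40.5% in the Tra/Trd V part and 73.7% in the Trb V part, against 86.8% on chromosome 19. With lengths counted in such unique words and chromosome 19 as the comparison, the ratio of shared density was 1.19 in the Igh V part, 0.0262 in the Igk V part, 1.19 in the Tra/Trd V part and 0.565 in the Trb V part. Within the 4 loci, 31.4% of the replicate 1 windows overlapped another window of the same list, against 6.66% in the rest of the genome, so neighbouring windows are not separate sites. Merged, the 698 windows were 578 sites, of which 136 were shared.

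Of the 668 annotated segments, 146 (21.9%) had a replicate 1 peak in the body or the 1 kb before its start, and 44 (6.59%) a shared one. All protein-coding genes gave 78.7% and 66.8% by the same rule, but they are much longer; olfactory receptor genes, which also form clusters of short copies, gave 12.9% and 2.73%. Among V genes the share with a replicate 1 peak was 47.8% of 115 in Igh, 2.94% of 102 in Igk, 21.7% of 115 in Tra/Trd and 59.1% of 22 in Trb. Shared peaks were at 22 Igh, 0 Igk, 9 Tra/Trd and 4 Trb V genes. Among pseudogenes a shared peak was at 7 of 81 in Igh and 0 of 21 in Tra/Trd, and a replicate 1 peak at 30.9% and 33.3%, which was below the share of V genes in Igh and above it in Tra/Trd. None of the 26 D or 85 J segments had a shared peak. With peaks at or above the median of their list, 1.05% of segments had a shared one.

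Just outside the Igh V segments the peaks sat mostly on the side where RAG cuts. Within 200 bp of a V segment, 82 replicate 1 peaks had their centre on the 3′ side and 20 on the 5′ side. Replicate 2 had 34 on the 3′ side and 0 on the 5′ side, and the shared peaks numbered 37 and 0. The 37 windows joined 31 separate replicate 2 peaks. Their scores in replicate 1 ran from 37 to 148 with a median of 86, and those of their partners in replicate 2 from 12 to 44 with a median of 20. The median was above that of all peaks in replicate 1 (74) and below it in replicate 2 (35). The count was 3 among peaks at or above the median of their list, and 17 with the replicate 1 list cut to the length of the replicate 2 list. A further 61 replicate 1 peaks lay inside V segments, 10 of them shared. Over 1 kb from any V segment there were 170 replicate 1 peaks, 17 of them shared.

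The alpha and delta V segments showed the opposite side. Here 30 replicate 1 peaks lay within 200 bp 5′ of a V segment, where the promoter is, and 1 lay 3′. Replicate 2 had 11 and 0, and the shared peaks numbered 14 and 0. The 14 windows overlap each other, however, and joined only 7 replicate 2 peaks. None of the 14 had all their words unique, and their median share of unique words was 53.8%. Of the 30 replicate 1 windows, 3 had all words unique. The part of repeated sequence in the difference between the sides was not tested. The beta V segments had both kinds in replicate 1, with 9 on the 3′ side and 6 on the 5′ side. Shared Trb peaks were 0 on the 3′ side and 2 on the 5′ side. The kappa V segments had 3 replicate 1 peaks on the 3′ side (at Igkv14-111, Igkv11-106 and Igkv10-96) and 0 on the 5′ side, and no shared peak.

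**Figure D2:**
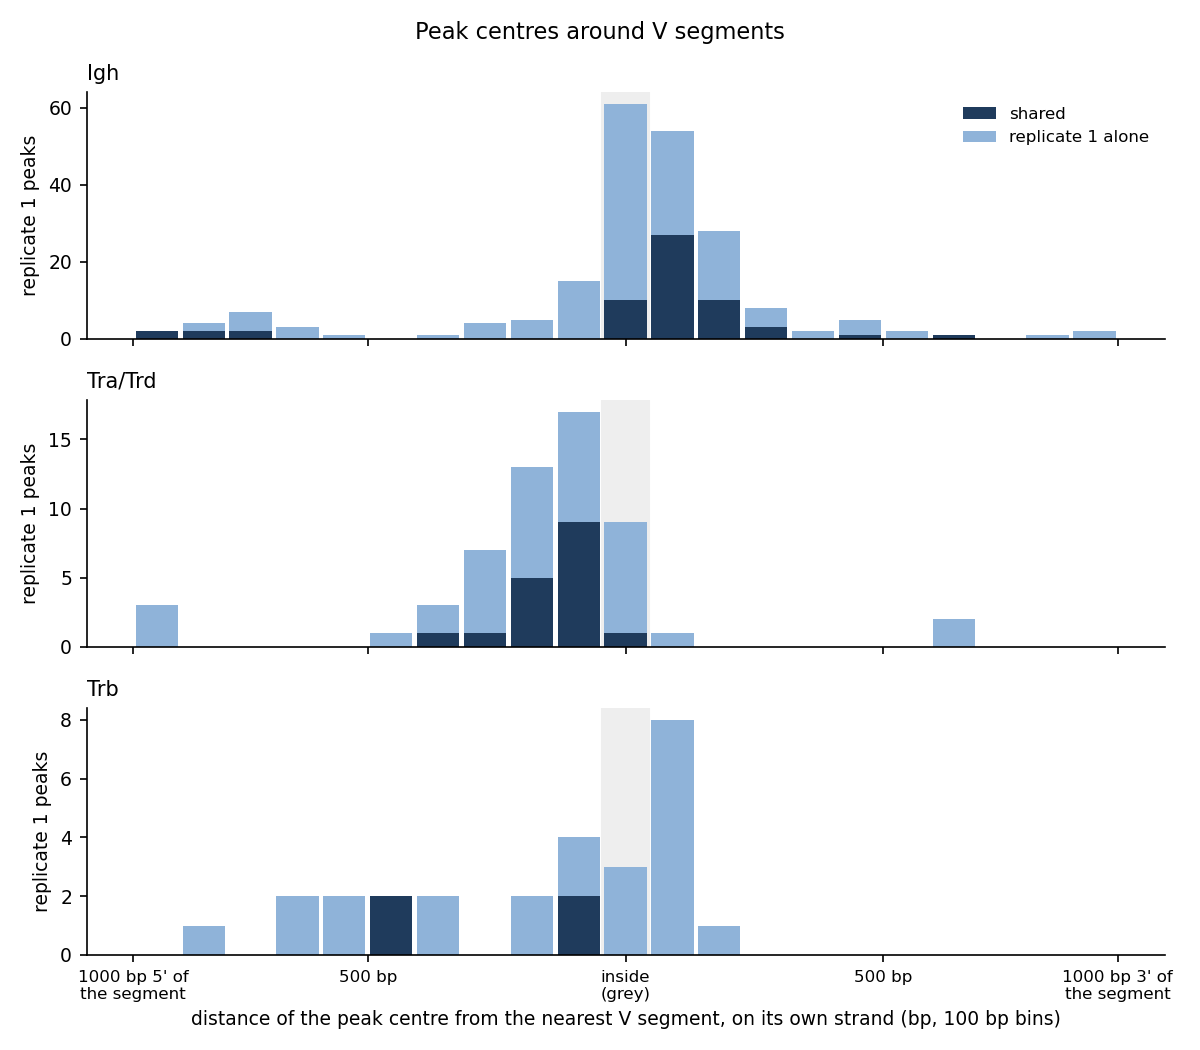
Position of replicate 1 peak centres relative to the nearest V segment on its own strand, in bins of 100 bp out to 1 kb on either side (horizontal axis) against the number of peaks (vertical axis), with the segment itself as 1 grey bin. Dark bars are shared peaks and light bars peaks of replicate 1 alone; within 200 bp the shared Igh peaks were all on the 3′ side (37) and the shared Tra/Trd peaks all on the 5′ side (14).

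The sides were also counted per segment, so that several windows at a segment count once. A replicate 1 peak centre lay within 200 bp on the 3′ side of 46.1% of the 115 Igh V genes and 16.0% of the 81 Igh V pseudogenes, and a shared one at 21.7% and 7.41%. On the 5′ side the replicate 1 shares were 8.70% and 11.1%, with no shared peak. In Tra/Trd the 5′ side had a replicate 1 peak at 14.8% of 115 genes and 9.52% of 21 pseudogenes, and a shared one at 6.09% of the genes. In Trb the 3′ side had a replicate 1 peak at 36.4% of 22 genes and 7.69% of 13 pseudogenes.

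**Figure D3:**
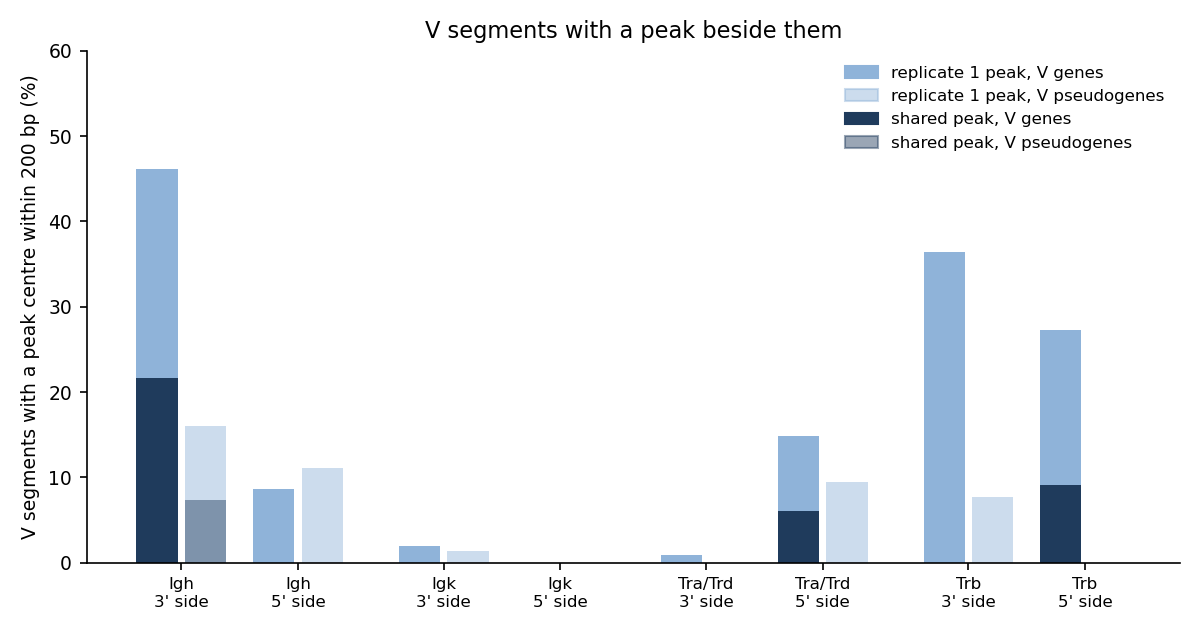
Percentage of V segments (vertical axis) with a peak centre within 200 bp, for the 3′ and the 5′ side in each locus (horizontal axis). Full colour is for V genes and pale colour for V pseudogenes, light blue for a replicate 1 peak and dark blue for a shared one; the tallest bar is the 3′ side of Igh V genes, at 46.1%, and both Igk sides stay under 2%.

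Igh V families differed in what lay under these peaks. Ighv2 and Ighv5 are the families nearest to the D segments. All 9 shared V part peaks nearest to one of their 33 segments lay within 200 bp on the 3′ side, and 8 of the 9 windows (88.9%) held a CTCF match, against 7.52% of the shared windows in the rest of the genome and 10.1% of those over 1 kb from coding starts. The replicate 1 scores of these 9 ran from 37 to 86, and those of their partners in replicate 2 from 14 to 31. Of the 33 segments, 16 had a CTCF match in the 200 bases 3′ of the segment. A replicate 1 peak lay there at 12 of these 16, of which 8 were shared, and at 0 of the 17 segments without a match. In all Igh, 18 V genes and 1 pseudogene had such a match, and the pseudogene was Ighv4-2. All 16 segments with a match were thus V genes. The match and the kind of segment are not separate here, and the part of each was not tested.

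The CTCF matches had a fixed place and direction. In all Igh, 19 matches were found within 200 bases 3′ of the 196 V segments, and 19 of 19 were on the strand of the segment, as in the Ighv2-3, Ighv5-2 and Ighv2-9 windows above. Where the segment also had an exact RSS heptamer, the match began 60 bases after the start of the heptamer in 6 Ighv2 and 2 Ighv4 segments, and 58 bases after it in 4 Ighv5 segments. All 8 at 60 bases had a replicate 1 peak, 5 of them shared, and 2 of the 4 at 58 bases had a shared one. Members of a family are copies of each other, so these are not independent observations.

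The far larger Ighv1 family, farther from the D segments, had peaks of another kind. Of its 93 segments none had a CTCF match within 200 bases 3′, and none of the 17 shared 3′ side windows held one. A RUNX match was present in 52.9% of those 17 windows and the RSS heptamer in 47.1%, against 6.11% and 4.70% of the shared windows in the rest of the genome. The windows lie where an RSS lies, so both shares follow from their place. Of all 93 Ighv1 segments, with or without a peak, 61 had a RUNX match and 69 the heptamer in the 200 bases 3′. The shares in the 17 windows are therefore not shown to be high for the family. The 17 windows had replicate 1 scores of 55 to 148, with a median of 106, and joined 12 replicate 2 peaks of 15 to 44. The highest was at Ighv1-58, with scores of 148 and 44 in replicates 1 and 2.

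The RUNX match lay within the signal sequence, between heptamer and nonamer. Of 67 Ighv1 segments with an exact heptamer, 47 had the match on the opposite strand, starting 11 bases after the start of the heptamer, which places AACCACA in the spacer, as the Ighv1-58, Ighv1-42 and Ighv1-64 windows show. A replicate 1 peak lay within 200 bp 3′ at 24 of these 47 segments, and a shared one at 11. Of the 20 segments with the heptamer and without that match, 1 had a replicate 1 peak and 0 a shared one. Most of these 20 segments lay between Ighv1-2 and Ighv1-40. In that stretch Ighv1-7 was the only segment with the match that had a replicate 1 peak. The match and the position in the locus are thus not separate, and the part of position was not tested. The spacing of both motifs was looked for after the peaks had been seen. Ighv9 segments, of which 4 carry the same match at the same place, had no peak there. Ighv8 had 15 replicate 1 peaks on the 3′ side, 4 of them shared, and 73.3% of the 15 windows held a RUNX match. Of all 16 Ighv8 segments, with or without a peak, 11 had a RUNX match in the 200 bases 3′. The share in the windows is therefore not shown to be high for the family. Only 1 Ighv8 segment had an exact heptamer, and 0 had the match 11 bases after one.

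RUNX proteins are required in both blood stem cells and lymphocytes, and the match is only an agreement of letters. The 31-base words of the shared 3′ side windows of Ighv1 were unique at a median of 62.5%, and those of Ighv2 and Ighv5 at 81.7%. Of the 37 shared 3′ side windows in Igh, 7 had all their words unique. The part of repeated sequence in the family difference was not tested.

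**Figure D4:**
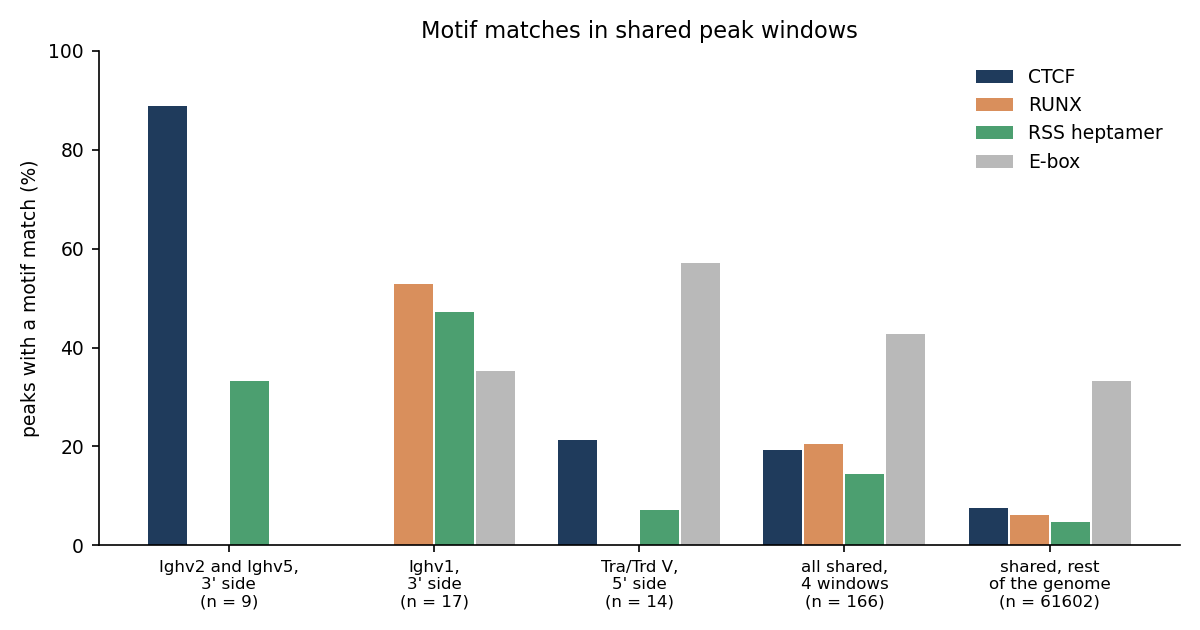
Percentage of shared peak windows with at least 1 match to CTCF, RUNX, the RSS heptamer or an E-box (vertical axis) in 5 sets of windows (horizontal axis, number of windows in brackets). CTCF matches are in 88.9% of the windows 3′ of Ighv2 and Ighv5 and in none of those 3′ of Ighv1, where 52.9% hold a RUNX match.

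Igh V peaks on the 5′ side, all in replicate 1 alone, held the octamer ATGCAAAT in 65.0% of 20 windows, the element of immunoglobulin V promoters. None of the 166 shared windows in the 4 loci held it, for which the exact (Clopper-Pearson) 95% interval, covering counting error only, reaches 2.20% and includes the 0.716% of the rest of the genome. Of the 196 Igh V segments, 124 had the octamer in the 200 bases 5′, and 13 of these (10.5%) had a replicate 1 peak there, against 6 of the 72 without it (8.33%). In Igk 96 of 176 segments had the octamer there and 0 had a peak.

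Of the 14 shared windows on the 5′ side of Tra/Trd V segments, 57.1% held an E-box and 21.4% a CTCF match. The E-box share was 33.2% in the rest of the genome. Merged, the 14 windows were only 7 sites. Of all 136 Tra/Trd V segments, with or without a peak, 16 had a CTCF match on the 5′ side. A shared peak lay there at 2 of these 16 and at 5 of the 120 without a match. E-boxes were not counted over all segments, so their share is not shown to be high for these segments. With so few sites, the CTCF share is not shown to be high either. Of all 118 shared V part peaks of the 4 loci, 47.5% held an E-box and 22.0% a CTCF match. Shared windows over 1 kb from coding starts in the rest of the genome gave 37.0% and 10.1%. Trav16 had the highest of the 14 windows, with scores of 136 and 22 in replicates 1 and 2. Trav4-4-dv10 followed with 115 and 30, and B230359F08Rik, annotated as a T cell receptor V gene, with 97 and 28. The highest partner in replicate 2, of 35, was at Trav6n-6, where the replicate 1 score was 75. Trav17, the alpha V gene with the highest replicate 2 score by the segment rule, had 87 and 37 at a peak 228 bp 5′ of it.

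In Trb the Trbv1 promoter stood highest, with scores of 146 and 44 in replicates 1 and 2. Its window overlaps the start of the most 5′ V gene and lies at the edge of the locus. Trbv21 had 119 and 24, Trbv12-1 had 99 and 26, and Trbv12-2 had 99 and 27, the last pair at 479 and 460 bp before the segment. The remaining 13 Trb segments with a peak by the segment rule had it in replicate 1 alone, from 38 at Trbv27 to 108 at Trbv10.

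Of 11 intervals around known control elements or between groups of segments, 6 had a shared peak, 1 had peaks in replicate 1 alone and 4 had none in either list. The intervals ran from 2.51 to 54.83 kb, and stretches of like length elsewhere were not counted. The count of 6 is therefore not shown to be high or low. The number with a shared peak was 2 when only peaks at or above the median of their list were kept. The 54.83 kb from Igha to the edge of the window, which holds the Igh 3′ regulatory region, a group of enhancers and CTCF sites, had 13 replicate 1 peaks, 10 replicate 2 peaks and 9 shared peaks. The 9 lay from 30.3 to 38.6 kb beyond Igha, with scores of 86 to 134 in replicate 1 and 31 to 71 in replicate 2, and 2 of them held a CTCF match. All 13 had only unique words. E-mu had 1 shared peak, with scores of 134 and 29, about 0.928 kb from Ighj4, and 5 weaker ones of 52 to 60 in replicate 1 alone.

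The alpha locus had its strongest peaks around the constant gene. Within Trac, which encodes the alpha constant region, a peak scored 145 and 65 in replicates 1 and 2. The stretch from Trac to Dad1, which holds E-alpha, had 9 replicate 1 peaks, of which 4 were shared, with scores of 147 and 58, 134 and 35, 149 and 74, and 130 and 43. The peak of 149 and 74 lay 3.35 kb beyond Trac. Dad1, a broadly expressed gene beside the enhancer, had a promoter peak of 150 and 85 that also lies within 1 kb of the start of Abhd4. The 5 kb before Traj61, where the T early alpha promoter lies, had a shared peak of 95 and 30. Traj segments farther on had 8 replicate 1 peaks of 40 to 69, none of them shared.

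The kappa, beta and delta elements had few peaks, none above 22 in replicate 2. Between the last kappa V segment and Igkj1, the Cer and Sis interval had 2 shared peaks, with scores of 113 and 22 and of 90 and 14. Between Igkj5 and Igkc, where the kappa intronic enhancer lies, no peak was called in either list, although all words there were unique. Between Igkc and Rpia, which holds the kappa 3′ enhancers, there were 2 peaks of 78 and 73 in replicate 1 alone. The interval of E-beta, from Trbc2 to Trbv31, and that of E-delta, from Trdj2 to Trdc, had none in either list, with 98.5% and 73.3% of words unique. The 5 kb before Trbd1 had a shared peak of 36 and 10, low in both lists.

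In the D/J part of Igh a replicate 1 peak of 117 covered Ighd4-1, the D segment next to the J segments, and another of 99 lay 1313 bp from it, both without a partner in replicate 2. A shared peak at chr12:113487796-113487945 scored 102 and 45, between Ighd1-1 and Adam6b, and held a PU.1-type ETS match. Between Ighd5-1 and the first Igh V segment, 46.12 kb, no peak was called. In the Igh constant part shared peaks of 103 and 21 and of 104 and 28 lay 4723 bp from Ighe and 861 bp from Gm37944.

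Sharing between replicates followed score. Of the replicate 1 peaks in the loci, 23.8% were shared, against 26.2% in the rest of the genome and 26.1% of all peaks. Of the replicate 2 peaks, 97.4% were shared, against 91.9% in the rest of the genome and 91.9% of all. Within a score class the loci were shared more often: 41.2% of 80 peaks with replicate 1 scores of 80 to 99, against 23.3% in the rest of the genome, and 88.9% of 36 with scores of 120 to 139, against 76.9%. All 10 locus peaks of 140 to 150 were shared. These shares count windows, and several overlapping windows can have the same partner, which was more frequent in the loci. Merged over all scores, 136 of 578 sites in the loci were shared, against 60333 of 227297 in the rest of the genome. Merged sites were not counted by score class. Spearman's rho between the scores of shared peaks was 0.591 over 166 windows, against 0.794 over 61602 in the rest of the genome; overlapping windows share a partner, so the points are not independent.

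**Figure D5:**
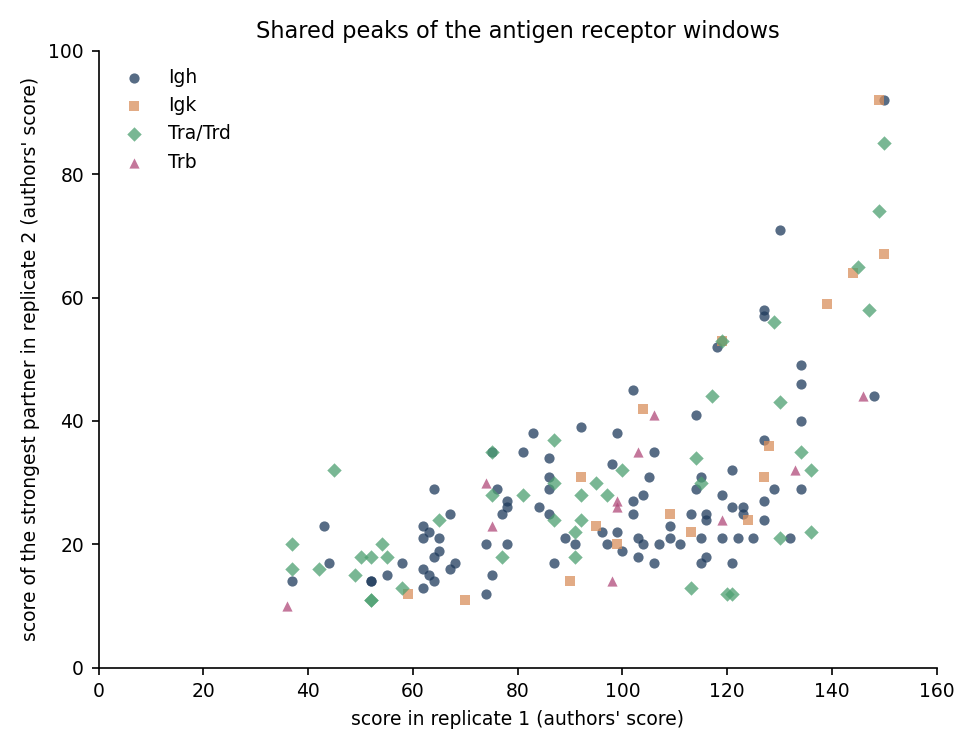
Score of each shared peak in replicate 1 (horizontal axis) against that of its strongest partner in replicate 2 (vertical axis), on the authors' own scale, for 94 Igh, 17 Igk, 44 Tra/Trd and 11 Trb windows. Most points lie between 10 and 40 in replicate 2, and those above 80 are the promoters of Zfp386 (150 and 92), Rpia (149 and 92) and Dad1 (150 and 85).

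The plot of scores shows that the shared peaks of highest replicate 2 score belonged to genes other than the receptors. Of 28 other protein-coding genes in the windows, 7 had a shared peak at a start, against 57.7% of all 21938 coding genes. Among the 7 were Zfp386, Vipr2, Rpia, Olfr1509, Dad1 and Abhd4. Vipr2, a neuropeptide receptor gene, had 119 and 28 in replicates 1 and 2, and the olfactory receptor gene Olfr1509 had 136 and 32. The 15 coding genes of the Trb window, which include the trypsinogens Prss1, Prss2 and Try4, had no peak at a start in either list.

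Genes whose products assemble or accompany the receptors were examined outside the loci. The RAG genes had few peaks. Rag1 had no peak within 1 kb of a start in either list, and Rag2 had 85 in replicate 1 alone. Dntt, which adds nucleotides at the joins, had none. All 7 end joining genes had a shared peak, from 132 and 39 at Xrcc5 to 150 and 101 at Xrcc6 and Dclre1c. Of 9 partner chains, 2 were shared, Vpreb1 of the surrogate light chain at 148 and 78 and Cd3d of the T cell receptor complex at 150 and 72. Ptcra, Igll1, Cd79a and Cd3g had none. Of 10 lymphoid factors that bind receptor enhancers, 6 were shared, among them Pax5 at 129 and 59, Ebf1 at 134 and 52 and Ikzf1 at 148 and 76. These counts stand beside the 57.7% of all coding genes with a shared peak at a start.

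The deposited hotspots, which are wider regions, gave the same order of loci. Replicate 1 had 393 hotspots in Igh, 30 in Igk, 147 in Tra/Trd and 77 in Trb, and replicate 2 had 86, 17, 35 and 11. They covered 3.43% of Igh and 0.475% of Igk in replicate 1, against 3.32% of the genome, and 0.603% and 0.193% in replicate 2, against 0.774%.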

How the data were processed

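DNase-seq peaks and hotspots of AML cells were analysed from 1 deposited peak list and 1 hotspot list per biological replicate, each made by the authors from pooled technical replicates and tied to its replicate by the notes deposited with the libraries. The deposited peak score is the authors' own whole number, and the deposited hotspots carry a −log10 q value with a ceiling of 100; the caller, its settings, read depth and any scaling are not stated in the sources used here. Coordinates are 1-based mm10, with GENCODE M21 genes and RefSeq GRCm38 sequence. Repeated entries (48 and 5) were kept once and only chromosomes 1 to 19, X and Y were used. Peaks were placed by their centre; parts followed the nearest segment between the first and the last, sequence within other coding genes or 1 kb of their starts was counted apart, and immunoglobulin pseudogenes of no stated segment type were left out. The segment rule was the body or 1 kb before its start. Named segments, peaks and genes were all segments with a shared peak up to 30, the 3 shared and 3 unshared peaks of highest rank per locus, the strongest peak per interval, shared peaks in the V, D/J and C parts up to 40, coding genes in the windows and the receptor lists; others were chosen after their values were seen. Members, lists and motifs were chosen with earlier results of these data known. CTCF was searched by name as its 12-letter consensus and the other motifs by the letters given, exactly, on both strands of the 150 bp window; matches to ETS, C/EBP (TTGCNNAA) and IRF (GAAANNGAA) may overlap others. Overlap, word and motif steps were tested on simulated data. Python 3.11.15, pandas 2.3.3, numpy 2.4.6 and scipy 1.17.1 were used. Alternatives were the score threshold, list length, overlap, windows, unique sequence, single lists, hotspots and merged windows.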

Additional observations from a re-analysis of the deposited data

How the results depend on the processing

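Values are shared peaks per Mb over the rest of the genome unless stated. With peaks at or above the median score of their list, the ratio was 0.353 for the 4 loci (0.799 in the report), 0.146 for the V parts (0.656), 0.499 for Igh (1.39) and 0.294 for the Igh V part (1.29). Segments with a shared peak were then 1.05% (6.59%), Igh 3′ side peaks 3 (37), intervals 2 (6) and the shared percentage of replicate 1 peaks 16.4 (23.8). With the replicate 1 list at the length of the replicate 2 list these were 0.503, 0.312, 0.907, 0.706, 2.40%, 17 and 72.7, with 4 intervals. A 50% overlap gave 19.9% shared. Without peaks near coding starts the ratio was 1.10 for the loci and 1.36 for Tra/Trd (0.992), and in unique words beside chromosome 19 it was 1.15 for Tra/Trd and 1.19 for its V part (0.887). Within 1 kb of a segment body it was 2.5 for the V parts, 5.28 for Igh, 0 for Igk (0.0271), 2.14 for Tra/Trd and 1.57 for Trb (0.765). The segment body alone gave 4.79% of segments. From single lists, the loci ranged from 0.683 to 0.879, the V parts from 0.524 to 0.827, segments from 7.19% to 21.9% and Igh 3′ side peaks from 34 to 82; Trb (0.589) ranged from 0.539 to 1.18 and its V part from 0.788 to 1.65, the highest from replicate 1 alone. Alternatives chosen after seeing the data gave 0.501 beside chromosome 19, 0.668 for merged windows, and 7 Igh 3′ side peaks with all words unique. The cause of these shifts was not tested. No paired analysis was possible because there is 1 list per biological replicate and no group to pair. Depth is not stated, so a missing peak is not shown to be closed chromatin.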

Other observations

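The other loci of the receptor family, which lie outside the 4 windows, were counted in the same way within their outermost segments and 50 kb on either side. The lambda light chain locus (Igl) held 22 peaks in replicate 1, 4 in replicate 2 and 5 shared peaks, or 73.5 and 16.7 per Mb. The T cell receptor gamma locus (Trg) held 31, 8 and 7, or 113 and 25.5 per Mb. Both lay well above the 12.4 and 5.15 per Mb of Igk, and the rest of the genome had 89.3 and 23.3. The stretches are unlike, however. Those of Igl and Trg are 299 and 275 kb long with the 50 kb on either side, whereas 3157.87 kb of the Igk window is V part. The part of the flanks in the difference was not tested.

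Away from V segments, 41 shared peaks of the V parts lay over 1 kb from any V segment, and 22.0% of them held a CTCF match, as did 22.0% of all 118 shared V part peaks, against 10.1% of the shared peaks over 1 kb from coding starts in the rest of the genome. Those of highest score were in Igh at chr12:115283676-115283825, inside Gm30948, with scores of 134 and 46 in replicates 1 and 2, and at chr12:115544716-115544865, 1278 bp from Gm9238, with 134 and 40. In Trb a peak 2412 bp from Gm37878 had 133 and 32, a peak 5694 bp from Trbv20 had 106 and 41, and a peak 1519 bp from Prss58 had 103 and 35 and held a CTCF match.

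Peaks of replicate 2 without a partner in replicate 1 included 1 with a score of 28 in the Igh 3′ regulatory region, 1 of 29 in Trac and 1 of 34 at 725 bp beyond Trac.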
